A study of Nematostella vectensis with 33 samples.

Results

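Embryos of the starlet sea anemone Nematostella vectensis that carried a control short hairpin RNA (shRNA) were compared with and without the cyclic dinucleotide 2'3'-cGAMP. The comparison holds 4 of the 33 libraries of the series, taken by their labels from the table of the STING experiment. Of these, 2 libraries came from embryos with a GFP shRNA that were given the dinucleotide at 100 µM over 4 h (numbered 4 and 5 in the labels), and 2 came from embryos with the same shRNA and no treatment (numbered 1 and 2). All 4 therefore carry an shRNA against GFP, a jellyfish fluorescent protein, and differ in the dinucleotide. The labels give whole embryos and polyA RNA, without the embryos' age or strain and without saying what the untreated embryos received in place of the dinucleotide. Whether the libraries are separate cultures is not stated, so each p-value speaks only of the spread among the libraries at hand, which may be technical.

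The other groups served to see what the same genes did elsewhere. Embryos with either of 2 shRNAs against STING, untreated or with 100 µM 2'3'-cGAMP over 4 h, gave 8 libraries of the same table. A second embryo experiment held only embryos given that same dose over 4 h, with an shRNA against GFP (3 libraries), with either of 2 against NF-kB (2 libraries each) or with either of 2 against STAT (2 libraries each). Whole polyps, for which the labels give no shRNA, were left untreated or given 2'3'-cGAMP, at 500 µM over 24 h (2 libraries each). The transcripts that the STING, NF-kB and STAT shRNAs target could not be paired with identifiers, so their depletion was not analysed here.

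In animals from cnidarians to mammals, STING is a receptor in the membrane of the endoplasmic reticulum that binds cyclic dinucleotides. In mammals 2'3'-cGAMP is made by the enzyme cGAS when DNA appears in the cytosol, and bound STING activates interferon regulatory factors and NF-kB, which switch on interferon and antiviral genes. STAT proteins carry the interferon signal to the nucleus in vertebrates. Sea anemones have STING, NF-kB and STAT proteins but no recognised interferon genes. Bacteria use the related dinucleotides with 3'3' links as signals of their own. The deposited tables give genes as NCBI Gene identifiers and the reference at hand pairs them with placeholder symbols (LOC and a number) and no product names, so genes are given here by symbol and without a role. For the same reason the lists of innate immune pathways and of embryonic cell types matched 0 genes, and the labelled tissue could not be checked against its markers.

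The 4 libraries were unequal at the low end of the table. Deposited totals were 21.5 and 20.5 M in untreated 1 and 2 and 24.8 and 26.3 M in 2'3'-cGAMP 4 and 5, from an estimated 18.5, 22.8, 30.5 and 29.1 M reads. Untreated 1 was listed at exactly 0 for 3458 of the 20879 tested genes (16.6%), and 2'3'-cGAMP 4 for 1961 (9.4%), against 311 (1.5%) in untreated 2 and 356 (1.7%) in 2'3'-cGAMP 5. The 3458 genes had a median value of 14.1 in untreated 2, and 1343 of them were also at 0 in 2'3'-cGAMP 4. Across genes, log2 values correlated at 0.873 between the untreated libraries and at 0.900 between the treated ones, while untreated 2 and 2'3'-cGAMP 5, which lack the many zeros, correlated at 0.921. In these bulk samples, fewer cells of a type and less RNA per cell cannot be told apart.

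After 4 h of 2'3'-cGAMP most of the genes called in control embryos were higher. Of the 20879 tested genes, 943 rose and 268 fell at an adjusted p below 0.05 (limma on log2 of the deposited value plus 1, Benjamini-Hochberg over all tested genes). Called genes made up 5.80% of those tested, with 4.52% called higher and 1.28% called lower, and 77.9% of the calls were rises. The median log2 change over all tested genes was 0.04. With every library scaled to an equal total, which lowered that median to -0.22, rises were 57.1% of 1277 calls, and with quantile normalization they were 68.1% of 1309.

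The rises were also the larger changes. The 943 raised genes had a median log2 change of 2.52, with quartiles at 1.68 and 4.04 and a range from 0.85 to 9.98. Among them 618 rose by at least 2 on the log2 scale, 384 by at least 3, 240 by at least 4 and 67 by at least 6. The 268 lowered genes had a median of -1.59, with quartiles at -2.06 and -1.30, and the largest fall was -5.89. Only 80 of them fell by at least 2, and none of the 268 by 6. Neither list held a gene whose treated and untreated libraries overlapped, while over all tested genes both treated libraries lay above both untreated ones in 4029 (19.3%) and below them in 3457 (16.6%).

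**Figure D1:**
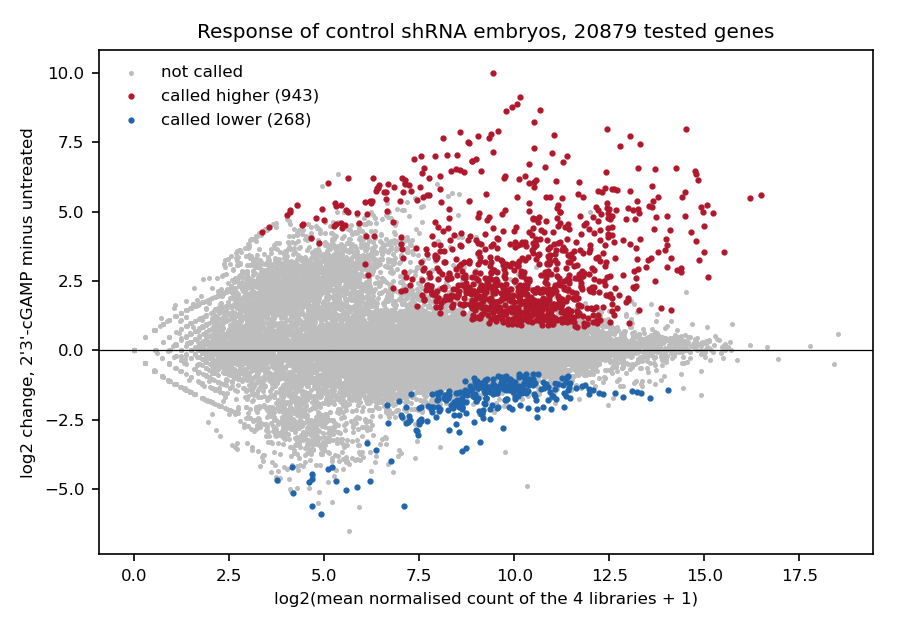
Log2 change in control shRNA embryos (2'3'-cGAMP minus untreated, vertical axis) against log2 of the mean normalised count of the 4 libraries plus 1 (horizontal axis), one point for each of the 20879 tested genes. The 943 genes called higher (red) reach a change of 9.98, whereas the 268 called lower (blue) end at -5.89.

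The precision differed between called genes and all tested genes. The 95% interval of the log2 change reached a median of 0.79 to either side in raised genes, 0.72 in lowered genes and 1.15 over all tested genes. A small spread itself favours a call, so the narrower intervals of called genes follow in part from the choice. Leaving out untreated 1 and 2'3'-cGAMP 4, the libraries with most zeros, left 530 genes called higher and 28 called lower, of which 520 and 26 were among the 943 and the 268. Without untreated 1 alone 669 rose and 58 fell, and without 2'3'-cGAMP 4 alone 623 rose and 116 fell. Without untreated 2 the count was 2279 rises, 44.8% of them at 0 in untreated 1, the only untreated control library left, and 492 falls. Every one of the 943 and 268 kept its direction in each of these fits. This was bound to follow, since their treated and untreated libraries do not overlap. The calls that no single left-out library removed were 498 rises (52.8%) and 39 falls (14.6%).

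Many of the raised genes started from middling values and ended among high ones. The median of their untreated means was 336 normalised counts, and that of their treated means was 1955. A mean below 10 in untreated embryos was seen for 62 of the 943, and a mean of at least 10000 in treated embryos for 99. Of the raised genes, 86 were listed at 0 in untreated 1, 10 in untreated 2 and 9 in both.

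The rule that named genes by their rise or fall took only genes whose treated and untreated libraries did not overlap. Among those so named, a gene with a strong rise and no zero in any library was LOC5517508. Its normalised counts were 107 and 326 in untreated 1 and 2, and 47357 and 46487 in 2'3'-cGAMP 4 and 5. The treated libraries lay close together and far above both untreated ones, 217 times higher by the ratio of the means. The log2 change was 7.96 (SE 0.44, adjusted p = 2.86e-06, limma).

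LOC5518230 had normalised counts of 23.4 and 69.1 without treatment and of 7882 and 14021 with it. Treated embryos lay above untreated ones with no overlap, although the treated pair spread by more than that of LOC5517508, and the log2 change was 7.99 (SE 0.88, adjusted p = 0.000276, limma). LOC5520446 was measured at 142 and 33.7 in untreated 1 and 2 and at 24992 and 8698 in 2'3'-cGAMP 4 and 5. Its replicates disagreed most among these strong responders that had no zero, yet the lower treated library was still far above the higher untreated one (log2 change 7.71, SE 0.87, adjusted p = 0.000331, limma).

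A further 4 genes with an untreated mean of at least 100 were taken for the size of their rise. LOC5519088 went from 143 and 92.8 normalised counts to 16687 and 23878 (log2 change 7.43, SE 0.41). LOC5521493 went from 312 and 130 to 17064 and 21707 (log2 change 6.57, SE 0.54). For these genes the treated libraries were well apart from the untreated ones, at 172 and 87.8 times the untreated means. LOC116616218 had 241 and 599 without treatment and 24271 and 52728 with it (log2 change 6.55, SE 0.57). LOC5508998 had 153 and 480 without and 19255 and 32955 with it (log2 change 6.53, SE 0.46). In both, untreated 1 was the lowest of the 4 libraries and 2'3'-cGAMP 5 the highest, and the groups did not overlap. The adjusted p of the 4 ran from 2.86e-06 to 4.82e-05 (limma).

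The other genes with the largest rises were all listed at 0 in untreated 1, so their fitted change depends on that 0 and on the pseudocount of 1. LOC116612243 had the largest change of all tested genes. Its normalised counts were 0 and 0.896 in untreated 1 and 2 and 1465 and 1322 in 2'3'-cGAMP 4 and 5. Both untreated libraries were at or near 0 and the treated ones agreed closely (log2 change 9.98, 95% interval 8.87 to 11.09, adjusted p = 2.2e-06, limma). In untreated embryos with STING shRNAs the same gene was at 13.5 to 42, and its change there was 5.53.

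For the following 3 genes untreated 2 was low but not 0. LOC116608134 was at 0 and 19.3 in untreated embryos and at 2105 and 2172 in treated ones (log2 change 8.89, SE 1.46). LOC116618411 was at 0 and 18.4, then at 1553 and 1973 (log2 change 8.63, SE 1.43). LOC116604070 was at 0 and 22.4, then at 946 and 1128 (log2 change 7.74, SE 1.11). In each, the treated libraries lay closer together than the untreated ones, as far as a listed 0 can be compared. Untreated embryos with STING shRNAs ran from 0 to 31.6 for LOC116608134 and from 0 to 40.4 for LOC116618411, and from 26.9 to 48.6 for LOC116604070. The SE is pooled over all groups of the table, so these libraries enter it too.

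LOC116608899 was at 0 and 31.4 and then at 950 and 1711 (log2 change 7.81, SE 1.18). LOC5519900 was at 0 and 23.6 and then at 743 and 1038 (log2 change 7.47, SE 1.10). LOC5513327 was at 0 and 39.9 and then at 1171 and 1389 (log2 change 7.64, SE 1.22). As before, and as the rule required, no treated library overlapped an untreated one. The adjusted p of these 3 genes and the 3 before them lay between 0.00167 and 0.0044 (limma). LOC116608134 and LOC116618411 lost their call when untreated 1 and 2'3'-cGAMP 4 were left out, and all 6 lost it when the 4 libraries were fitted alone. Without untreated 1 all 6 kept their call, with smaller log2 changes of 4.96 to 6.72.

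LOC5516365 and LOC116614706 differed from these in a higher second untreated library. LOC5516365 was at 0 and 89.6 without treatment and at 2717 and 3004 with it (log2 change 8.23, 95% interval 4.93 to 11.53, adjusted p = 0.00772, limma). LOC116614706 was at 0 and 272 and at 2060 and 6108 (log2 change 7.75, 95% interval 3.65 to 11.85, adjusted p = 0.0338, limma). By the ratio of the means the treated libraries were 63.9 times the untreated ones for LOC5516365 and 30.1 times for LOC116614706. The fitted log2 change of LOC5516365 was 4.98 without untreated 1 and 11.48 without untreated 2, and that of LOC116614706 was 3.70 and 11.79. The interval of LOC116614706 is the wider, and its call was lost when either treated library was left out. In untreated embryos with STING shRNAs, LOC116614706 was at 97 to 504, so that untreated 1 stood apart from 5 other untreated embryo libraries in the same table.

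**Figure D2:**
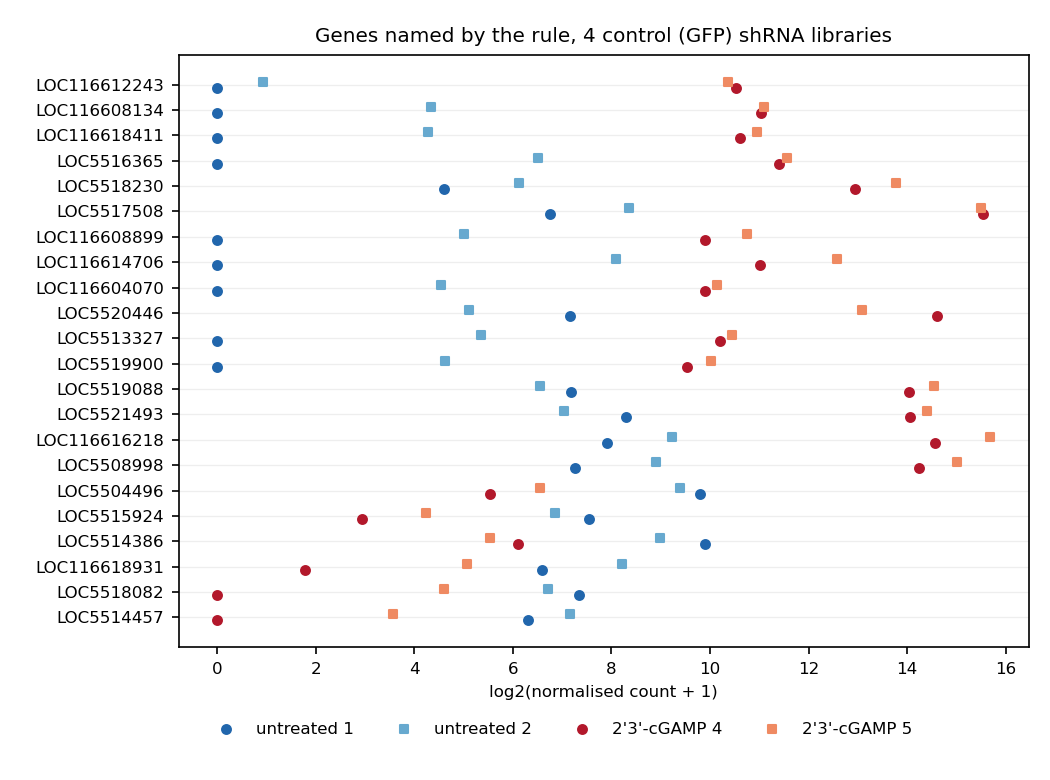
Log2 of the normalised count plus 1 (horizontal axis) of the 22 genes named by the rule (one row each, ordered by their log2 change), with one point for each of the 4 control shRNA libraries. Treated points (red and orange) lie to the right of untreated points (blue) in the 16 raised genes. They lie to the left in the 6 lowered genes. The rule required this lack of overlap. Blue circles at 0 are the genes listed at 0 in untreated 1.

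Falls were smaller than rises, and fewer of their calls outlasted the loss of any single library. The median of the untreated means of the 268 lowered genes was 959 normalised counts and that of the treated means was 327. A treated mean below 10 was found for 13 of them, and 15 were listed at 0 in 2'3'-cGAMP 4.

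LOC5504496 had the smallest adjusted p of the 6 largest falls that the rule took. Its normalised counts were 882 and 671 in untreated 1 and 2 and 45.7 and 92.8 in 2'3'-cGAMP 4 and 5. Both treated libraries lay far below both untreated ones, and the gene fell by 3.54 on the log2 scale (SE 0.46, adjusted p = 0.00085, limma). LOC5514386 had 958 and 506 without treatment and 67.8 and 45.4 with it (log2 change -3.63, SE 0.63, adjusted p = 0.00586, limma). It lost its call without untreated 1, while the change itself stayed between -4.09 and -3.17 in all settings tried.

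LOC5515924 had 185 and 114 normalised counts in untreated embryos and 6.71 and 17.8 in treated ones (log2 change -3.60, adjusted p = 0.0119, limma). LOC116618931 had 95.8 and 296, then 2.45 and 32.5 (log2 change -3.98, adjusted p = 0.0297, limma). In both genes the pairs did not overlap, but each treated pair spread widely. LOC5514457 had 78.0 and 141 without treatment and 0 and 10.8 with it (log2 change -4.94, adjusted p = 0.018, limma). LOC5518082 had 161 and 104 and then 0 and 23.3 (log2 change -4.73, adjusted p = 0.05 after rounding, limma), and it was called in only 5 of 15 settings. The listed 0 of the last 2 genes was in 2'3'-cGAMP 4, the treated library with most zeros. Every gene of these 4 lost its call without 2'3'-cGAMP 4, with log2 changes of -3.16 to -2.34 there.

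As a share of the library, the raised genes gained about as much in every treated embryo library of the table. They held 2.98 and 2.87% of the deposited total in untreated 1 and 2, and 18.56 and 18.98% in 2'3'-cGAMP 4 and 5. The lowered genes held 2.39 and 1.88% without treatment and 0.676 and 0.575% with it. These 2 pairs of shares describe the lists in the libraries that chose them. The STING shRNA libraries entered the choice only through the estimate of the spread and not through the change itself. In them the raised genes held 2.81 to 3.52% of the total in untreated embryos with STING shRNAs and 17.49 to 19.0% in treated ones.

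Shares within each of the other tables, which were normalised separately, can be set beside these as percentages. In the second embryo experiment, where every embryo received 2'3'-cGAMP, the raised genes held 26.01 to 28.14% of the total with the GFP shRNA. With NF-kB shRNAs they held 19.79 to 26.89%, and with STAT shRNAs 23.48 to 26.84%. In polyps they held 2.97 and 3.13% untreated, 32.25 and 31.23% with 2'3'-cGAMP and 3.12 to 4.41% with the other 3 dinucleotides. The treated control embryos of the first experiment thus had a lower share than those of the second, at the same labelled dose and time.

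**Figure D3:**
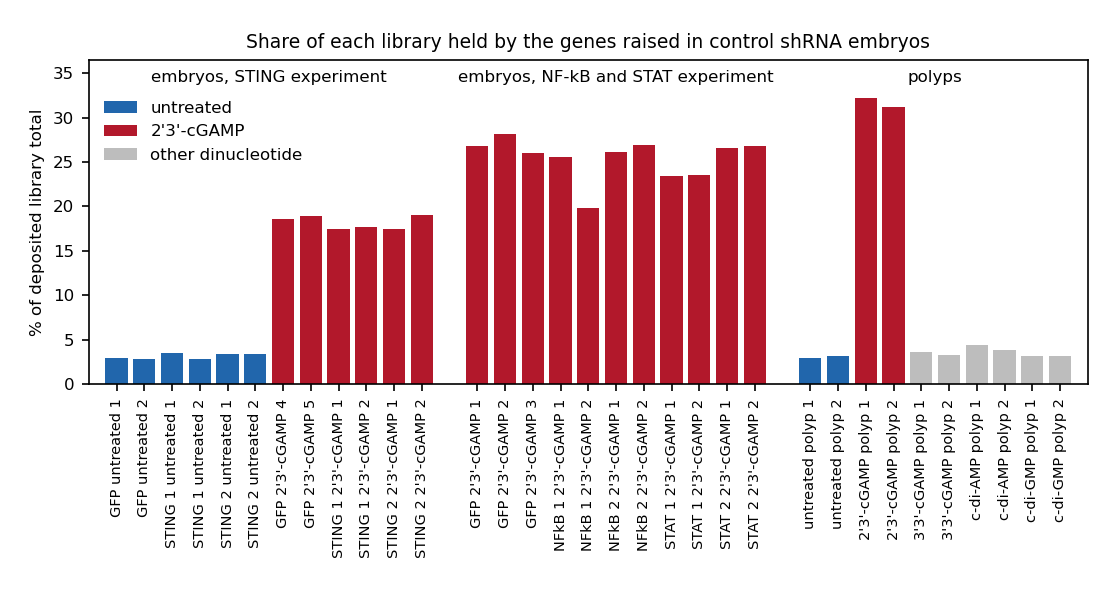
Percentage of the deposited library total held by the 943 genes raised in control shRNA embryos (vertical axis), one bar per library, in the 3 tables of the series. Bars of untreated libraries (blue) stay between 2.81 and 3.52%, those of embryos with 2'3'-cGAMP (red) start at 17.49% and those of polyps with 2'3'-cGAMP reach 32.25%.

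The same genes moved in embryos with STING shRNAs. Of the 943 raised genes, 880 (93.3%) were called higher by 2'3'-cGAMP in the mean of both STING shRNAs, against 7.10% of all tested genes, and 0 were called lower. Every one of the 943 estimates was above 0. Their median log2 change was 2.18, compared with 2.52 in the control embryos that chose them. Starting instead from the 1483 genes called higher with STING shRNAs, of which the 880 are 59.3%, the medians were 1.72 there and 1.78 in control embryos, and 1471 had an estimate above 0 in control embryos. A list thus had nearly the same median in both when chosen on the STING shRNA libraries.

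Lowered genes gave 238 of 268 (88.8%) called lower with STING shRNAs, against 3.78% of all tested genes, with a median of -1.31 compared with -1.59. The 789 genes called lower with STING shRNAs, of which the 238 are 30.2%, had medians of -1.21 there and -1.13 in control embryos. The difference between the responses was tested for each gene as the interaction of shRNA and treatment. It was called for 0 of 20879 genes (0%) by limma. An unadjusted p below 0.05 (limma) was found for 311 (1.49%) of all genes. The same held for 51 (5.41%) of the raised genes and 19 (7.09%) of the lowered genes. The change was smaller with STING shRNAs for 762 of the 943 raised genes and 223 of the 268 lowered ones. Both lists were chosen on the control libraries. When untreated 2 was left out, 651 genes were called for the interaction, and 0 were called when any other of the 12 libraries was left out.

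LOC5517508 can be compared library by library. Its normalised counts ran from 358 to 661 in untreated embryos with STING shRNAs and from 33237 to 49584 in treated ones, so that the untreated ones lay above both untreated control libraries and the treated ones overlapped the treated control libraries. The log2 change was 6.28 with STING shRNAs and 7.96 in control embryos, a difference of -1.68 (95% interval -2.87 to -0.49, not adjusted for the number of genes) with an adjusted p of 1 (limma).

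Polyps, at another dose and time, in another table and with another library kit, raised most of the same genes. Of the 943, 927 were tested in polyps and 882 of these (95.1%) were called higher there, against 28.5% of all genes tested in polyps. A further 8 were called lower. The median log2 change of the 927 in polyps was 3.55, while the median of all tested polyp genes was -0.10, and 688 had a larger change in polyps than in embryos. Across the 927 genes, which are not independent replicates, the changes correlated at 0.65.

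The falls carried over as well, but their sizes did not line up. Of the 268 lowered genes, 258 were tested in polyps and 210 (81.4%) were called lower there, against a background of 30%, with 8 called higher. Their median in polyps was -2.18. Across these 258 genes the correlation between the changes was 0.03, and among raised genes it was 0.65.

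**Figure D4:**
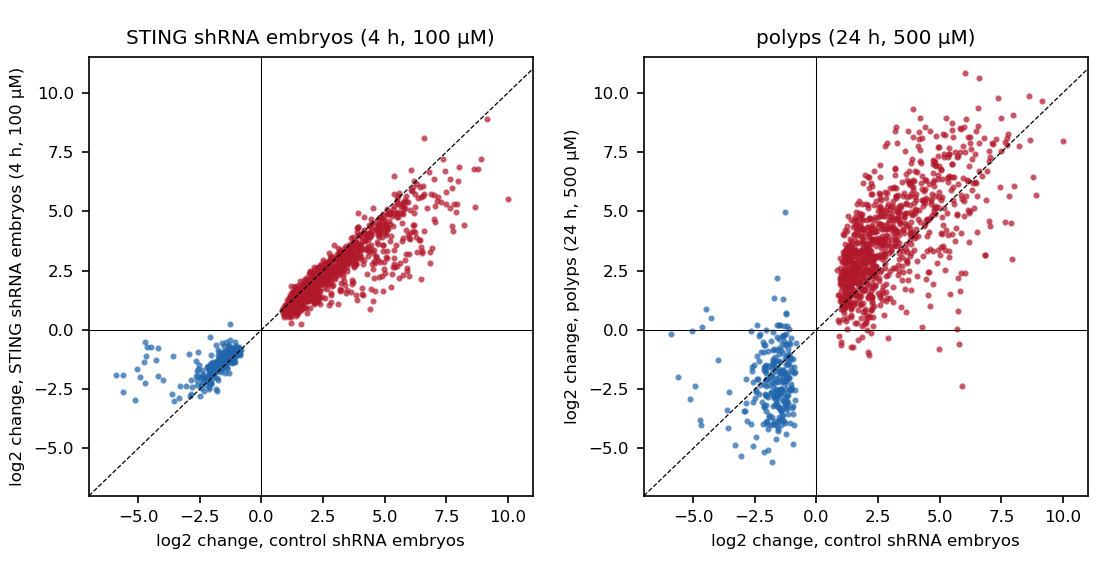
Log2 change by 2'3'-cGAMP in embryos with STING shRNAs (left, vertical axis) and in polyps (right, vertical axis) against that in control shRNA embryos (horizontal axes), with one point for each of the 943 raised (red) and 268 lowered (blue) genes that were tested. The dashed line marks equal changes. In the left plot 762 of the 943 raised points lie below it, and in the right plot 688 of 927 lie above it. Both lists were chosen on the control libraries.

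Some of the named genes moved more in polyps than in embryos, and others moved less. LOC5508998 was at 300 and 334 normalised counts in untreated polyps and at 171183 and 248987 with 2'3'-cGAMP, a log2 change of 9.35 (adjusted p = 3.64e-10, limma) beside 6.53 in control embryos. LOC116608134 was at 1.70 and 1.77 in untreated polyps and at 97.7 and 201 with 2'3'-cGAMP, a log2 change of 5.69 beside 8.89. Doses, times and tables differ, so the sizes stand side by side without a test of their difference. All 22 named genes changed in the same direction in polyps and were called there.

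Some of the raised genes were lower in treated embryos with NF-kB shRNAs. In the second experiment all 943 were tested, and 111 (11.77%) were called lower with NF-kB shRNAs than with the GFP shRNA, against 1.57% of all tested genes. Another 52 (5.5%) were called higher, against 1.20%. Over the 943 the median log2 difference was -0.09, next to -0.04 over all tested genes, and 533 estimates were below 0. No untreated embryos were part of that experiment, so the difference is one of treated levels and not of responses.

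The 111 genes lower with NF-kB shRNAs had a higher median response than the rest. Their median log2 change by 2'3'-cGAMP in control embryos was 3.30, and 4.78 in polyps, while the 52 genes higher with NF-kB shRNAs had medians of 2.18 and 2.57, and the other 780 of 2.41 and 3.40. The NF-kB difference itself had a median of -1.20 (from -3.65 to -0.60) in the 111 and of 0.93 (from 0.63 to 2.75) in the 52. The 111 make up 35.4% of the 314 genes lower with NF-kB shRNAs, and the 52 make up 21.6% of the 241 higher. Single libraries weighed on these counts: without GFP shRNA 2'3'-cGAMP 2 the genes called lower were 57 and those called higher 18, and without the first library of NF-kB shRNA 2 they were 58 and 16. Without the first library of NF-kB shRNA 1, 24 were called higher.

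Among the named genes, LOC116604070 had the largest NF-kB difference. It was at 3251 to 5881 normalised counts in treated embryos with the GFP shRNA and at 305 to 1064 in those with NF-kB shRNAs, without overlap (log2 difference -3.14, adjusted p = 0.000127, limma). LOC5513327 was at 1949 to 2539 with the GFP shRNA and at 410 to 1135 with NF-kB shRNAs (log2 difference -1.71, adjusted p = 0.00241, limma). LOC5519900 had 2784 to 3964 with the GFP shRNA and 753 to 1617 with NF-kB shRNAs (log2 difference -1.71, adjusted p = 0.000651, limma). In none of these 3 genes did the groups overlap. LOC5521493 moved the other way, from 22659 to 29419 with the GFP shRNA to 35455 to 51829 with NF-kB shRNAs (log2 difference 0.82, adjusted p = 0.0211, limma). LOC5517508, the strongest responder without a zero among genes with an untreated mean of at least 100, had a log2 difference of -0.46 with an adjusted p of 0.312 (limma).

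STAT shRNAs were followed by a single call in the whole table. LOC5514869, which was named after its values were seen, is the 1 of 20058 tested genes (0.00499%) called lower with STAT shRNAs, and it is one of the 943. It was at 3278 and 1483 in untreated 1 and 2 and at 25288 and 17246 in 2'3'-cGAMP 4 and 5, without overlap (log2 change 3.24, SE 0.42, adjusted p = 0.000842, limma). In the second experiment it was at 20350 to 27499 with the GFP shRNA and at 4839 to 8294 with STAT shRNAs, again without overlap (log2 difference -1.89, adjusted p = 0.000774, limma). With NF-kB shRNAs it was at 12476 to 25342, which overlaps the GFP shRNA range (log2 difference -0.29, adjusted p = 0.454, limma). No gene (0%) was called higher with STAT shRNAs by limma. At an unadjusted p below 0.05 (limma), which is no call, 435 of the 20058 tested genes were higher and 645 lower. Of the 943 raised genes 6 were higher and 142 lower. The share lower was thus larger among the raised genes than over all tested genes, and the share higher was smaller. Without single libraries the number of raised genes called lower was 1 to 4.

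Of the 268 lowered genes, 263 were tested with NF-kB shRNAs, and 4 (1.52%) were called lower (LOC5508366, LOC5506668, LOC5508180 and LOC116619810) and 2 (0.8%) higher (LOC5505309 and LOC5513937). These shares are near those over all tested genes, 1.57 and 1.20%. LOC116619810 was at 6034 and 6420 normalised counts in untreated 1 and 2 and at 1842 and 2950 in 2'3'-cGAMP 4 and 5 (log2 change -1.42, adjusted p = 0.0269, limma). In the second experiment it was at 828 to 1324 with the GFP shRNA and at 311 to 999 with NF-kB shRNAs, ranges that overlap (log2 difference -1.01, adjusted p = 0.00915, limma). LOC5513937 was at 2727 and 2651 and then at 1209 and 973 (log2 change -1.31, adjusted p = 0.00789, limma). It was at 288 to 399 with the GFP shRNA and at 408 to 752 with NF-kB shRNAs, without overlap (log2 difference 0.80, adjusted p = 0.0456, limma). These 6 genes were named after their values were seen. None of the 263 tested lowered genes (0) was called with STAT shRNAs by limma in either direction, and at an unadjusted p below 0.05 there were 9 higher and 0 lower. The median log2 difference of the 263 was -0.15 with NF-kB shRNAs and 0.11 with STAT shRNAs.

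The raised genes were often neighbours in the genome. Taking protein-coding genes in their order in the reference assembly jaNemVect1.1, 779 raised genes could be placed, and 208 of them (26.7%) had another raised gene next to them. Of all 15777 tested genes that could be placed, 1294 (8.2%) had a raised gene next to them. The 208 formed 96 runs, 83 of them of 2 genes, 10 of 3 and 3 of 4. Of the 112 pairs in these runs, 22 have annotated spans that overlap, where reads could be assigned to either gene. Lowered genes had a lowered neighbour in 21 of 247 cases (8.5%), next to 2.8% of all placed genes.

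Neighbours were not alike in the size of their rise. The median absolute difference in log2 change was 1.36 within adjacent pairs and 1.45 over all pairs of raised genes. Calling genes without untreated 1 and 2'3'-cGAMP 4 placed 423 raised genes, of which 101 (23.9%) had a raised neighbour, next to 4.5% of all placed genes. In polyps, where many more genes were called, the corresponding shares were 49.0 and 40.7%.

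The first of the 3 runs of 4 holds LOC116614706, LOC5507391, LOC116614704 and LOC5507387, in this order. LOC116614706 was described above. LOC5507391 was at 552 and 705 normalised counts in untreated 1 and 2 and at 19197 and 27232 in 2'3'-cGAMP 4 and 5 (log2 change 5.19, SE 0.29). LOC116614704 was at 0 and 7.91 and at 135 and 260 (log2 change 5.98, SE 1.14). LOC5507387 was at 821 and 506 and at 11173 and 11685 (log2 change 4.15, SE 0.38). In all 4 genes the treated libraries lay above the untreated ones. In polyps their log2 changes were 8.24, 8.22, 8.53 and 8.04, so that the 4 differed by less there than in embryos.

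The second run is LOC5519898, LOC116618411, LOC116603455 and LOC5519900. LOC5519898 was at 0 and 18.9 without treatment and at 628 and 541 with it (log2 change 7.03, SE 1.10). LOC116603455, the one gene of the run with no zero, was at 34.4 and 51.8 and at 2797 and 2981 (log2 change 6.06, SE 0.35). Both pairs of LOC116603455 were tight and far apart. In embryos with NF-kB shRNAs LOC5519898, LOC116603455 and LOC5519900 were called lower, by log2 differences of -1.75, -1.36 and -1.71, and LOC116618411 at -0.40 was not (adjusted p = 0.372, limma).

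The third run is LOC5503216, LOC5503224, LOC5503217 and LOC116610889. LOC5503216 was at 441 and 837 normalised counts without treatment and at 44356 and 64410 with it (log2 change 6.46, SE 0.36). LOC5503224 was at 441 and 447 and at 16280 and 20932 (log2 change 5.37, SE 0.23). LOC5503217 was at 92.8 and 158 and at 2488 and 3614 (log2 change 4.62, SE 0.32). LOC116610889 was the weakest of the run, at 90.6 and 175 and then 1803 and 2040 (log2 change 3.92, SE 0.37). The changes decreased along the order of the genes, and in STING shRNA embryos they were 5.60, 5.22, 4.24 and 3.32 in the same order. In polyps they were 8.39, 7.4, 8.37 and 4.89, which does not keep that order. Of the 3 runs' adjacent pairs, 3 have overlapping annotated spans.

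**Figure D5:**
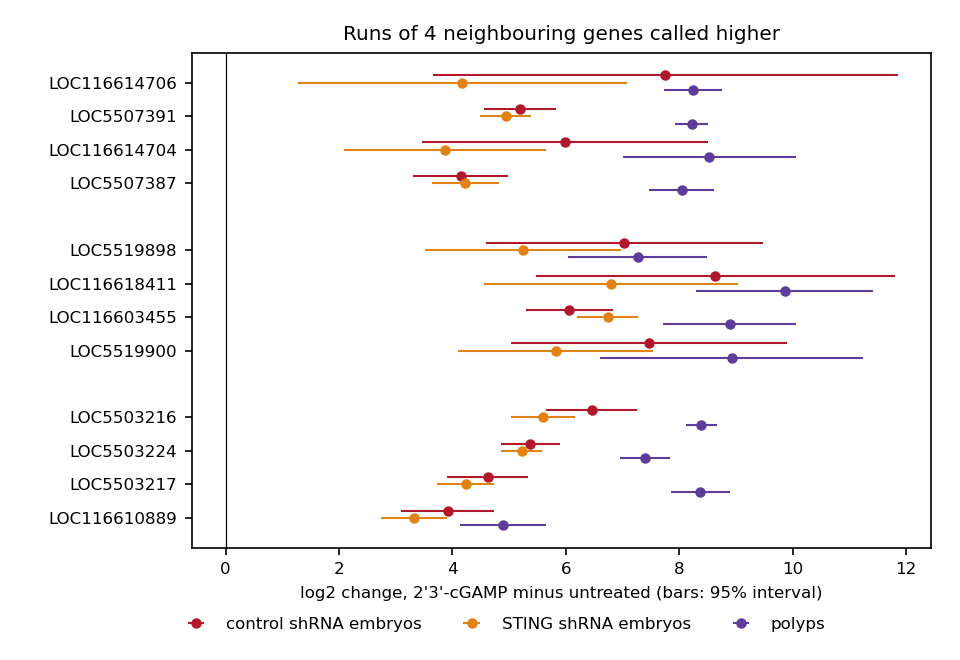
Log2 change by 2'3'-cGAMP (horizontal axis, points with 95% intervals as bars) of the 12 genes in the 3 runs of 4 raised neighbours, in the order of the reference, for control shRNA embryos (red), STING shRNA embryos (orange) and polyps (violet). All 36 points lie above 0, and the widest intervals in control embryos belong to genes listed at 0 in untreated 1.

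Raised genes were annotated as protein coding about as often as all tested genes. Of the 785 that matched the reference (83.2% of 943), 779 are protein coding, and 2 each are long noncoding RNAs, other RNAs and pseudogenes. Among the tested genes, 15909 matched (76.2%), of which 15782 are protein coding and 48 are long noncoding RNAs. The 2 raised long noncoding RNAs, named because there were so few, were LOC116614705 and LOC116621193. LOC116614705 was at 83.8 and 24.0 normalised counts without treatment and at 1814 and 2410 with it (log2 change 5.51, SE 0.55, adjusted p = 0.000117, limma). It lies beside LOC5507387 of the first run, and its annotated span overlaps that of LOC116614704, so that reads of the pair may not be told apart. LOC116621193 was at 169 and 122 and at 566 and 596 (log2 change 2.01, SE 0.30, adjusted p = 0.0025, limma), between neighbours that were not called. Both pairs of libraries of LOC116621193 were tight and did not overlap, and the gene was lower with NF-kB shRNAs (log2 difference -1.45, adjusted p = 0.00456, limma).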

How the data were processed

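Messenger RNA of whole embryos and polyps was sequenced after oligo dT capture, per the labels' protocols. The authors deposited 3 tables of normalized counts per gene, a signal that is not whole and never negative; the submitters' processing notes name FastQC 0.11.9, kallisto 0.46.1 and DESeq2, without role or order. The transcriptome build is not given in the sources used here. Samples were grouped by their titles.

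A gene was tested where 2 or more libraries of its table had a value of 10 or more. Log2 of the value plus a pseudocount of 1 entered limma 3.58.1 (R 4.3.3): a mean per group over all groups of the table, moderated variances with a trend, two-sided p-values adjusted by Benjamini-Hochberg over all tested genes, called below 0.05. Fold changes are on the log2(value + 1) scale, which understates changes of low genes; where 1 library of a pair is at 0, the fitted change can instead exceed the log2 ratio of the means. The effect of 2 shRNAs against one gene is the mean of both. Tables were normalised separately and never fitted together. The code was tested on simulated data.

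Estimated reads are the deposited total over the value of 1 read. They are approximate: 54.1 to 81.0% of the values below 10 in the 4 libraries lay within 0.05 of a whole number of reads. So no test for raw counts was run.

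Named genes were, among 1012 genes called with a mean of at least 50 over the 4 libraries, no overlap of groups and an entry in the reference, the 12 with the largest rise, the 6 with the largest fall and the 6 with the largest rise from an untreated mean of at least 100, in all 22. Parts of the rule that need product names or sequences could not be applied. Genes of the runs, noncoding genes and genes of small counts were named after their values were seen. The comparison, its lists and the rule were chosen with earlier results of these data known.

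Alternatives were other pseudocounts and filters, TMM factors, equal totals, quantile normalization, robust moderation, quality weights, the 4 libraries alone, a replicate block, stricter thresholds and each library left out. Replicate numbers did not pair libraries in the groups checked. Deviations from group means correlated at 0.02 to 0.14 over 6 pairs of STING shRNA groups. The range was -0.10 to 0.07 over 10 pairs in polyps and -0.01 to 0.13 over 10 in the NF-kB and STAT experiment. The 4 control libraries of the STING experiment and library GFP shRNA 2'3'-cGAMP 3 of the other embryo experiment were not part of this check.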

Additional observations from a re-analysis of the deposited data

Results flagged for a closer look

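Of the genes raised in control shRNA embryos, 8 of the 927 tested in polyps (0.86%) were called lower there with 2'3'-cGAMP, against 30% of all tested polyp genes, every treated library moving one way in embryos and the other way in polyps. The largest opposite change was that of LOC5507077, at 0 and 32.5 normalised counts in untreated embryos and 268 and 434 in treated ones (log2 change 5.89, adjusted p = 0.0367, limma), and at 81.5 and 88.5 in untreated polyps and 9.54 and 24.7 in treated ones (log2 change -2.39, adjusted p = 0.000334, limma). LOC5522276 had the smallest adjusted p of the 8 in embryos, at 286 and 323 and then 1602 and 1022 (log2 change 2.07, adjusted p = 0.00274, limma), and went from 920 to 1011 in untreated polyps to 495 to 504 in treated ones (log2 change -0.95, adjusted p = 0.0283, limma). The others were LOC116618150, LOC5506741, LOC5518461, LOC5519434, LOC5519848 and LOC5522093, with log2 changes of 0.92 to 2.15 in embryos and -1.08 to -0.27 in polyps. The difference was not tested, since dose, time, kit and table differ between polyps and embryos.

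Conversely, 8 of the 258 lowered genes tested in polyps (3.1%) were called higher there, against 28.5% of all tested polyp genes. The long noncoding RNA LOC116603376 was at 912 and 804 in untreated embryos and at 265 and 460 in treated ones (log2 change -1.29, adjusted p = 0.0423, limma), while it was at 0 to 9.56 in untreated polyps and at 92.7 to 106 in treated ones (log2 change 4.95, adjusted p = 0.000457, limma). In embryos with STING shRNAs its change was 0.25 (adjusted p = 0.605, limma). LOC5509542 fell from 520 and 407 to 150 and 153 in embryos (log2 change -1.60, adjusted p = 0.0217, limma) and rose from 16.8 to 17.8 to 62.0 to 112 in polyps (log2 change 2.20, adjusted p = 0.000621, limma). The others were LOC116613111, LOC5503631, LOC5504850, LOC5507165, LOC5507576 and LOC5514401. Here too the difference was not tested.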

How the results depend on the processing

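Each of the 943 raised and 268 lowered genes kept its sign in every setting tried in which it was tested (918 and 256 were tested with a mean of at least 50). Where libraries were left out, this was bound to follow, since the treated and untreated libraries of these genes do not overlap. Equal totals gave 548 genes called lower, quantile normalization 418. Array quality weights gave 614 calls (565 higher, 49 lower), the 4 compared libraries alone 216 (216 higher, 0 lower), untreated 1 and 2'3'-cGAMP 4 both left out 558 (530 higher, 28 lower) and an adjusted p below 0.01 616 (553 higher, 63 lower). With single libraries left out, calls ran from 727 to 2771, higher calls from 623 to 2279, lower calls from 58 to 492 and interaction calls from 0 to 651. Of the raised genes, 57 to 123 were lower and 16 to 59 higher with NF-kB shRNAs, 1 to 4 lower and 0 higher with STAT shRNAs, 773 to 846 higher with STING shRNAs and 860 to 866 higher in polyps. Of the lowered genes, 176 to 221 were lower with STING shRNAs and 190 to 207 in polyps. The cause of these shifts was not tested. No paired analysis was made for the control comparison because its groups share no replicate number. The deposited order sets untreated 1 beside 2'3'-cGAMP 4 and untreated 2 beside 2'3'-cGAMP 5, but this pairing was not tried. Log2 values correlated at 0.84 for 1 and 4, 0.819 for 1 and 5, 0.871 for 2 and 4 and 0.921 for 2 and 5. With the replicate block, 918 raised genes were called with STING shRNAs (924 without the block in the same libraries) and 248 lowered genes, 881 and 204 in polyps, 140 lower and 49 higher with NF-kB shRNAs, and 1 lower and 0 higher with STAT shRNAs, so no count moved by over 1.5 times. With 2 libraries a group, changes of low genes are the least precise. Their exact zeros, most of all in untreated 1, bear on both size and call.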

Other observations

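Calls in control shRNA embryos were more frequent at higher levels. Of the 6846 tested genes with a mean below 100 normalised counts over the 12 libraries of the table, 0.60% were called higher and 0.23% lower. Of the 9079 genes between 100 and 1000, 4.11% were called higher and 1.77% lower, and of the 4600 between 1000 and 10000, 10.3 and 1.91%. Of the 354 genes at 10000 and above, 55 (15.54%) were called higher, with a median log2 change of 4.46, and 0.85% lower. The mean includes the treated libraries, so a strong rise itself moves a gene to a higher class.

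The remaining genes that are not protein coding also rose. The transcripts LOC5511425 (257 and 173 normalised counts untreated, 973 and 1132 treated, log2 change 2.31) and LOC116614260 (80.5 and 68.7, then 362 and 246, log2 change 1.99) are annotated as other RNAs. The pseudogenes LOC5520257 (235 and 222, then 1155 and 1283, log2 change 2.41) and LOC116601230 (7.10 and 122, then 759 and 1246, log2 change 4.94) were also called. All 4 were called higher in embryos with STING shRNAs and in polyps. So were 93.3 and 95.1% of the raised genes tested there, and 7.10 and 28.5% of all tested genes. A pseudogene can share reads with its parent gene, so its counts are uncertain.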
